A study of Mus musculus with 12 samples.

Results

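Radial glia are the neural stem cells of the embryonic cortex. Their cell bodies line the ventricle, a long process reaches the surface of the brain, and they divide to give intermediate progenitor cells and neurons, which lose the glial features as they mature. A set of 10 genes used to recognise radial glia was followed here across all 25 clusters of nuclei and all 11 embryos: Slc1a3, Fabp7, Vim, Nes, Tnc, Ptprz1, Ednrb, Hopx, Creb5 and Adgrv1. The list was made of names, with earlier results of these data known, and all 10 were present among the 23513 genes of the count tables.

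The data were single nucleus RNA sequencing (snRNAseq) counts from mouse cortex at embryonic day 14. Pregnant C57BL/6J dams received saline or EtOH at 2.5 g/kg, given as a 25% solution by intraperitoneal injection once daily for 6 days, and 2 dams were used per group. By the study's account, the injections ran from the start of neurulation into cortical neurogenesis and ended the day before collection. The saline group held 5 embryos, numbered S1-1 and S1-2 from dam S1 and S2-1, S2-2 and S2-4 from dam S2, and the EtOH group held 6, numbered E1-1 and E1-2 from dam E1 and E2-1 to E2-4 from dam E2. Dams S1 and E1 formed batch 1 and dams S2 and E2 batch 2, so that within a batch the treatment and the dam cannot be told apart. Another saline embryo of dam S2 was not used here. All dams were of the same strain, and the controls shared the injections.

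The tables held 50550 nuclei. Median unique molecular identifiers (UMIs, counted transcripts) per nucleus ran from 6325 to 9051 in saline embryos and from 4071.5 to 6911 in EtOH embryos. The EtOH libraries were thus mostly the shallower ones. Saline embryo S2-4, at 6325, lay within the EtOH range, and the other saline embryos stood at 8365 or more. Clusters 2, 3, 12, 20 and 21 made up the radial glial cell (RGC) class with 11848 nuclei, Clusters 6 and 17 the intermediate progenitor cells (IPC) with 4757, 8 clusters the projection neurons (PN) with 16036, 7 clusters the interneurons with 13749, and Clusters 11, 14 and 19 the remaining 4160 nuclei. RGC nuclei were 20.97 to 31.2% of a saline embryo and 17.2 to 23.5% of an EtOH embryo. Saline littermates S2-1 and S2-2 stood apart in their RGC nuclei: Cluster 3 held 51.3% of them in S2-1 and 14.2% in S2-2, against 22.05 to 41.2% in the other 9 embryos. The tests of EtOH against saline on levels and on shares of nuclei were therefore also run without both. The study named the RGC class by Hes1, and Cluster 21 by Ednrb and Nes among other genes, so levels of these are no independent check of its labels. Hes1, Pax6 and Sox2, which are not members, are given in CPM (the counts of a gene as a part of all counts summed over the same nuclei, scaled to a common total). They stood at 74.1, 257 and 62.2 CPM in RGC nuclei and at 2.97, 14.7 and 5.21 in PN nuclei. Cluster 3 is named for interneuron precursors by the study, from RGC markers together with Dlx1 and Dlx2. It held Hes1 at 47.0 CPM together with Dlx1, a gene of ventral progenitors and interneurons, at 98.7 CPM against at most 38.4 in the other RGC clusters. Gad2, an enzyme of GABA synthesis, was at 120 CPM there, below the 158 of Cluster 20 and the 1209 of the late interneuron precursors in Cluster 10. The members in Cluster 3 are therefore described as those of a progenitor cluster within the RGC class.

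The promoters of 4 members are shown because these genes carry the results: Fabp7 was called higher with EtOH in a progenitor cluster, Adgrv1 was called lower in the most clusters of neurons, and the windows of Creb5 and Tnc held the rarest motif matches. Each run is the 250 bases before a transcript start in RefSeq (GRCm38.p6, the same coordinates as mm10), 5′ to 3′ on the strand of the gene, and capitals mark a match to one of 4 motifs searched on both strands: the RBPJ core TGGGAA of Notch signalling, the SOX core ACAAAG, the POU octamer ATGCAAAT and the CREB full site TGACGTCA.
Fabp7, chr10:57784673-57784922, plus strand: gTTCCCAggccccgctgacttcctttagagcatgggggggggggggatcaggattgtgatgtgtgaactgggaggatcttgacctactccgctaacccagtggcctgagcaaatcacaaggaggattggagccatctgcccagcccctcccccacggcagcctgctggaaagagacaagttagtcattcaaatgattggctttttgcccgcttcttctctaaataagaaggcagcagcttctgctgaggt
Adgrv1, chr13:81633145-81633394, minus strand: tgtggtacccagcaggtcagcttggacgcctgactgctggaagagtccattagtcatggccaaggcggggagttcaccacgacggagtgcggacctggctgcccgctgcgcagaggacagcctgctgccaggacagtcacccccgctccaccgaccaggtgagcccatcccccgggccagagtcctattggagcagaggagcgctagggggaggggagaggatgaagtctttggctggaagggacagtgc
Creb5, chr6:53287053-53287302, plus strand: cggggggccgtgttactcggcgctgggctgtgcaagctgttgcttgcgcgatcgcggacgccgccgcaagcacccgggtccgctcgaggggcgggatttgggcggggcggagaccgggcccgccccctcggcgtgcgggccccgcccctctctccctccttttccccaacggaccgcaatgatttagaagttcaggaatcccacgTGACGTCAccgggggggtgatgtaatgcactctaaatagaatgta
Tnc, chr4:64047016-64047265, minus strand: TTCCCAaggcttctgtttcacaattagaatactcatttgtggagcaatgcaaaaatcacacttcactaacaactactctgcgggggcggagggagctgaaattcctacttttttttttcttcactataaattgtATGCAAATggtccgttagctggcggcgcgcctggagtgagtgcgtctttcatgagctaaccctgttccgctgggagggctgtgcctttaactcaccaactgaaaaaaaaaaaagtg
The RBPJ core was present in a window of 3 of the 10 members (Fabp7, Tnc and Creb5, the last in a second window further downstream) and of 24.1% of 27025 genes. The POU octamer was present in Tnc and in 1.81% of genes, the CREB site in Creb5 and in 1.77%, and the SOX core in no member and in 18.6%. The shown window of Adgrv1 held none of these letters. Such matches are descriptions of the letters and not of binding.

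All 10 genes were higher in RGC than in PN nuclei, but to very different degrees. Nuclei were grouped into clusters by the study from the expression of the genes it kept, so differences between clusters are descriptions and were not tested. Levels are CPM of counts summed per embryo and cluster, as mean ± SD over embryos. Tnc, an extracellular matrix glycoprotein, was at 271 ± 103 CPM in RGC nuclei (n = 11) and 7.33 ± 3.06 in PN nuclei, a ratio of 37.0, the highest of the 10. Adgrv1, a very large adhesion G protein-coupled receptor, followed with a ratio of 30.5 and Creb5, a transcription factor of the CREB family, with 22.9. Ptprz1, a receptor-type tyrosine phosphatase, had the lowest ratio, 2.19, at 1466 ± 314 CPM in RGC and 670 ± 123 in PN nuclei.

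**Figure D1:**
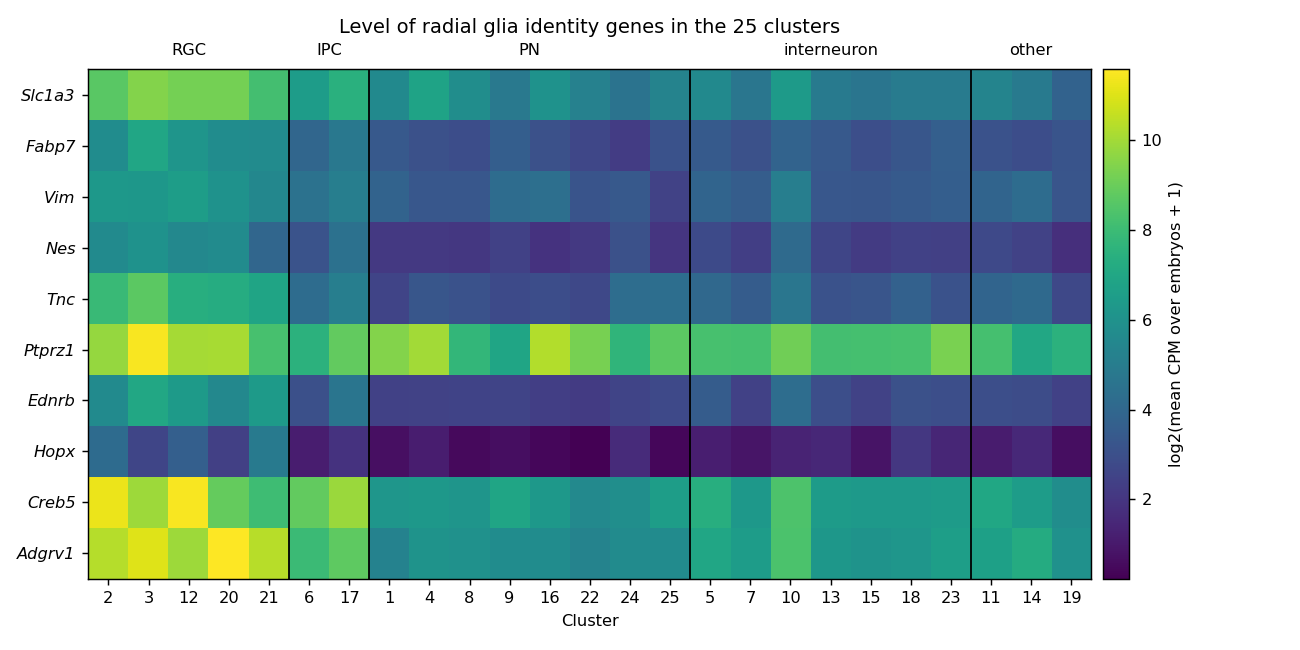
Heat map of the mean level of the 10 genes (rows) in the 25 clusters (columns, grouped by class), as log2 of the mean CPM over embryos plus 1. The 5 RGC clusters at the left hold the brightest cell of every row, and the Ptprz1 row stays bright in PN Clusters 1, 4 and 16.

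Within the RGC class the genes did not share 1 peak. Cluster 3 was the highest of the 25 clusters for 6 genes, Cluster 12 for Vim and Creb5, Cluster 20 for Adgrv1 and Cluster 21 for Hopx, and the same clusters led after every nucleus was thinned to 2000 UMIs. The 5 RGC clusters filled the 5 highest places for 7 genes. The exceptions were Creb5 and Nes, each with 4 RGC clusters among the highest 5, and Ptprz1 with 3. Of the 24 steps between neighbouring clusters in a gene's order, from 1 step for Nes and Tnc to 7 for Adgrv1 exceeded the larger SD of the pair, so most neighbours in these orders did not differ beyond the spread between embryos.

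Slc1a3 encodes the glutamate transporter GLAST, which clears glutamate from the extracellular space (chr15:8634124-8710764, minus strand, GENCODE M21). Its level was 714 ± 124 CPM in Cluster 3, 600 ± 267 in Cluster 20, 583 ± 68.9 in Cluster 12, 412 ± 71.3 in Cluster 2 and 292 ± 76.7 in Cluster 21. The steps from Cluster 3 to 20 and from 20 to 12 stayed within the spread, although Cluster 3 lay above Cluster 12 by more than it, and the steps down to Clusters 2 and 21 exceeded it. The next cluster was the mitotic IPC Cluster 17, at 171 ± 34.5 CPM, and the lowest was Cluster 19, at 12.8 CPM.

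Fabp7, also called BLBP, is a fatty acid binding protein of the cytoplasm and a classical radial glia marker (chr10:57784881-57788450, plus strand). It reached 121 ± 33.6 CPM in Cluster 3, above the 70.6 ± 21.2 of Cluster 12 by more than the spread. Clusters 2, 20 and 21 were level with one another at 52.3, 52.3 and 51.4 CPM. Ednrb, a G protein-coupled receptor for endothelins (chr14:103814625-103844402, minus strand), had the most similar pattern to Fabp7 of all genes compared, with Pearson r = 0.96 for mean log2(CPM + 1) over the 25 clusters. Its level was 130 ± 23.5 CPM in Cluster 3 and 84.1 ± 22.5 and 83.8 ± 32.3 in Clusters 12 and 21.

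Vim and Nes encode vimentin and nestin, the intermediate filament proteins of neural progenitors (chr2:13573927-13582826 and chr3:87971078-87980451, both plus strand). Vim was the flatter of the pair. It lay at 92.8 ± 18.6 CPM in Cluster 12 and 77.9 ± 12.4 in Cluster 2, and no step in its order from Cluster 12 down to Cluster 17 exceeded the spread. Nes was at 63.6 ± 9.39 CPM in Cluster 3 and between 44.9 and 50.8 in Clusters 2, 12 and 20, but at 14.8 ± 8.02 in Cluster 21, named for the cortical hem, which was below the 21.2 ± 8.18 of the IPC Cluster 17 and the lowest of the 5 RGC clusters, although the study lists Nes among the genes it named Cluster 21 by. These low counts put 1 UMI or more of Nes in 9.36% of RGC nuclei at 2000 UMIs per nucleus, and in 0.582% of PN nuclei.

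Tnc (chr4:63959785-64047015, minus strand) was at 415 ± 149 CPM in Cluster 3 and 242 ± 117 in Cluster 2, with a wide spread between embryos. Ptprz1 (chr6:22875502-23052916, plus strand), which can bind tenascins, was the broadest of the 10. Its level of 2800 ± 241 CPM in Cluster 3 was above that of the second cluster by more than the spread, and this second cluster was no RGC cluster: Cluster 16, the caudal subcortical PN, held 1237 ± 179 CPM, and Cluster 4, the rostral subcortical PN, 1034 ± 163. The early PN Cluster 9 held 120 CPM, the lowest of the 25.

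Hopx, a small homeodomain protein that marks outer radial glia in primates (chr5:77086988-77115121, minus strand), was at 12.6 ± 3.39 CPM in RGC nuclei. Cluster 21 gave the highest mean, 29.3 ± 18.7 CPM, and Cluster 2 followed with 17.2 ± 3.55, a difference within the spread. Cluster 3, where 6 other members peaked, held only 5.02 ± 2.03 CPM. At 2000 UMIs, 1.97% of RGC nuclei and 0.107% of PN nuclei held a Hopx UMI. An antisense gene, Hopxos, overlaps Hopx, 8030451A03Rik overlaps Tnc and 9330111N05Rik overlaps Adgrv1 on the other strand, and whether counting used strand was not given in the sources used here.

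Creb5 (chr6:53287270-53700376, plus strand) and Adgrv1 (chr13:81095068-81633154, minus strand) are the longest genes of the set, with spans of 413 and 538 kb. Creb5 was highest in the non-mitotic RGC Cluster 12 (2819 ± 164 CPM) and in Cluster 2 (2457 ± 169), and lower in Clusters 3, 20 and 21 (967, 481 and 264 CPM). In the IPC Cluster 17 it still stood at 945 ± 133 CPM, level with Cluster 3. Adgrv1 showed the opposite preference among the progenitors. It was at 3067 ± 510 CPM in Cluster 20 and 2114 ± 164 in Cluster 3, and at 968 ± 126 in Cluster 12. Levels were set side by side between genes only per length. Both lengths are used, since it was not given whether intronic reads were counted. Per kb of gene span, RGC nuclei held 21.2 CPM of Fabp7, 8.65 of Vim, 8.26 of Ptprz1, 6.79 of Slc1a3, 5.34 of Nes, 4.30 of Creb5, 3.11 of Tnc, 3.03 of Adgrv1, 2.72 of Ednrb and 0.447 of Hopx. Per kb of exon they held 103 CPM of Ptprz1, 71.0 of Creb5, 65.5 of Adgrv1, 60.9 of Slc1a3, 60.5 of Fabp7, 34.9 of Tnc, 19.001 of Ednrb, 16.2 of Vim, 8.29 of Hopx and 7.81 of Nes. The order of the genes thus depended on the length used. The 3′ chemistry reads the end of a transcript, so counts need not grow with exon length. Dividing by it can lower long transcripts, and neither order is taken as a ranking of levels.

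For all but Ptprz1, most UMIs of a gene among the nuclei kept by the study lay in RGC nuclei. The 5 RGC clusters held 23.4% of the nuclei and, as a mean over embryos, 20.8 ± 4.38% of all UMIs (n = 11). Their part of the UMIs was 85.0 ± 3.29% for Tnc, 79.0 ± 2.88% for Adgrv1, between 67.5 and 74.8% for Slc1a3, Fabp7, Nes, Ednrb, Hopx and Creb5, 58.4 ± 3.93% for Vim and 44.3 ± 8.24% for Ptprz1. If Cluster 3 was not counted with the RGC, the class held 15.5 ± 4.18% of nuclei. The parts then fell to 43.9 ± 11.7% for Tnc, 48.0 ± 8.12% for Adgrv1 and 18.5 ± 2.82% for Ptprz1. Those of Hopx and Creb5 fell less, from 74.6 and 74.7% to 64.8 and 62.3%. Only Hopx and Creb5 then kept most of their UMIs in the class.

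Single nuclei carried several members at once in RGC clusters. At 2000 UMIs per nucleus, an RGC nucleus held UMIs of 3.64 ± 0.251 of the 10 genes on average (n = 11 embryos), an IPC nucleus of 1.35 ± 0.112, a PN nucleus of 0.853 ± 0.0915, an interneuron of 0.761 ± 0.152 and a remaining nucleus of 0.616 ± 0.129. No member at all was seen in 0.955% of RGC nuclei and in 35.0% of PN nuclei. RNA from outside the nuclei was not estimated, and Gad2, an interneuron marker, stood at 26.5 to 55.3 CPM over the PN clusters. Thinning left out nuclei with fewer UMIs, 177 in saline and 210 in EtOH embryos. PN nuclei were deeper (median 7630.5 UMIs) than RGC nuclei (6477.5) before thinning. Among RGC nuclei, Fabp7 UMIs were found in 21.6% of nuclei with a Tnc UMI and in 10.0% of those without, and the share was higher in all 11 embryos. Hopx went the other way with Ednrb, which was seen in 8.23% of nuclei with a Hopx UMI and in 14.2% of those without, and higher with Hopx in 2 of the 9 embryos that had enough such nuclei. These shares pool the 5 RGC clusters, among which Cluster 3 had the highest levels of Fabp7, Tnc and Ednrb and a low level of Hopx.

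**Figure D2:**
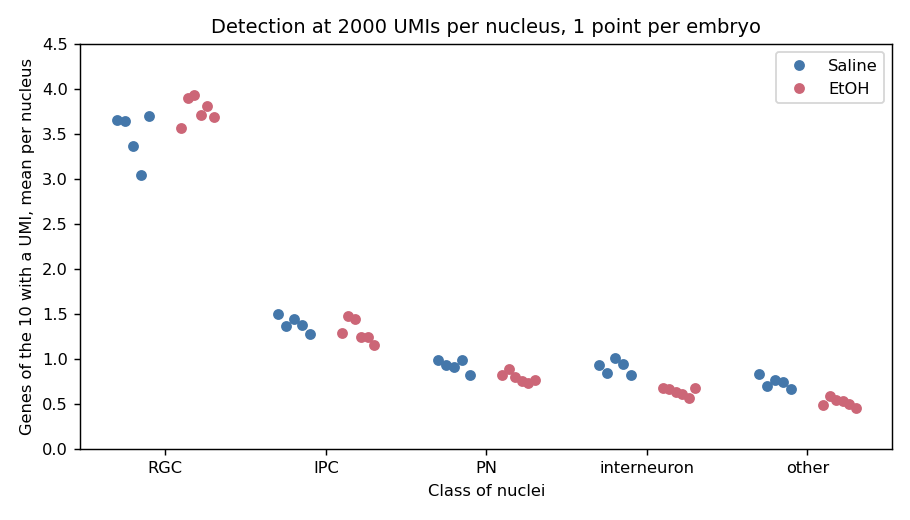
Mean number of the 10 genes with a UMI per nucleus thinned to 2000 UMIs (y axis), by class of nuclei, with 1 point per embryo (saline blue, EtOH red). RGC nuclei lie between 3.04 and 3.93 genes, and in interneurons the saline embryos (0.816 to 1.00) lie above the EtOH embryos (0.570 to 0.678). Most of the interneuron number came from Ptprz1, Adgrv1 and Creb5, and other genes were not compared.

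Over the 25 clusters, the 45 pairs of members had Pearson correlations of mean log2(CPM + 1) between 0.29 and 0.96, with a median of 0.88, and the clusters share libraries and depth. The 9 lowest of these pairs were the 9 that held Ptprz1. Of 8993 genes compared, those with the most similar patterns were Hes5 (r = 0.94) for Slc1a3, Swap70 (0.97) for Vim, Xrcc1 (0.97) for Nes, Mlc1 (0.98) for Ednrb, Mdfic (0.90) for Hopx, Lrp4 (0.97) for Creb5 and Rfx4 (0.98) for Adgrv1. For Tnc they were 9430041J12Rik (0.97) and Ttyh1 (0.96), and for Ptprz1 Klhl25 with only 0.73.

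The second comparison asked whether prenatal EtOH changed these genes within a cell class. A gene was called changed at an adjusted p under 0.05 with a fold below 0.8 or above its inverse, in an edgeR quasi-likelihood fit on counts summed per embryo, adjusted over all genes tested. In RGC nuclei none of the 10 genes passed, against 3.79% of 14282 genes tested. Of the 10, 3 had an unadjusted p under 0.05 in edgeR (Fabp7, Vim and Hopx), near the 29.8% of all genes. DESeq2 called 1 of the 10 and 9.14% of all genes, and limma voom with dams as a random effect 1 of the 10 and 7.5% of all genes. Fabp7 was the member called in both. In edgeR the median log2 fold change of the 10 was 0.17, with 7 above 0, and that of all genes was 0.00. The fit assumes independent embryos although littermates share a dam.

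Fabp7 came closest. Its CPM in RGC nuclei were 61.7, 60.8, 61.1, 48.3 and 77.5 in the saline embryos and 67.0, 74.1, 105, 111, 83.4 and 82.7 in the EtOH embryos. The highest saline embryo, S2-4, lay within the EtOH range, and the others lay below it. The log2 fold change was 0.43 ± 0.14 (SE; edgeR adjusted p = 0.0694), and it was 0.09 in batch 1 and 0.57 in batch 2. Without S2-4 the gene was called, with an adjusted p of 0.0251 (0.0251 to 0.146 when each embryo was left out in turn). Without S2-1 and S2-2 the log2 fold change was 0.32 (adjusted p = 0.236).

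Vim was at 59.5, 64.7, 71.8, 62.5 and 84.4 CPM in saline RGC nuclei and at 79.8, 85.1, 91.9, 83.7, 81.9 and 81.9 in EtOH RGC nuclei. Again only S2-4 of the saline embryos reached the EtOH range, and without it the adjusted p was 0.00573 at a log2 fold change of 0.28, under the fold limit. EtOH over saline gave a log2 fold change of 0.22 ± 0.07 (edgeR adjusted p = 0.0714), with 0.30 in batch 1 and 0.17 in batch 2, and 0.20 without S2-1 and S2-2 (adjusted p = 0.210).

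Tnc had the widest spread between embryos relative to its mean. Its values were 332, 272, 102, 81.6 and 249 CPM in saline and 243, 428, 343, 325, 330 and 275 in EtOH RGC nuclei. The low values were those of S2-1 and S2-2. Cluster 3, where Tnc was highest, held 51.3% of the RGC nuclei in S2-1 and 14.2% in S2-2. The part of the cluster makeup in these Tnc values was not tested. On the log2 scale the fold change of Tnc was 0.56 ± 0.36 (edgeR adjusted p = 0.326), with 0.04 in batch 1 and 1.11 in batch 2. It was 0.35 without S2-2 and 0.09 without both S2-1 and S2-2 (adjusted p = 0.795).

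The other members overlapped between the groups, Hopx by a single saline embryo. Slc1a3 was at 468 ± 85.7 CPM in saline (n = 5) and 564 ± 53.8 in EtOH RGC nuclei (n = 6), a log2 fold change of 0.19 ± 0.13. Hopx was at 10.5 ± 1.01 and 14.3 ± 3.76 CPM (0.36 ± 0.15), with S2-2 inside the EtOH range, Ednrb at 74.1 ± 12.6 and 86.8 ± 21.5 (0.16 ± 0.18), and Creb5 at 1694 ± 222 and 1844 ± 155 (0.05 ± 0.09). Nes was at 50.2 ± 6.19 and 50.02 ± 5.01 CPM (-0.08 ± 0.10), Ptprz1 at 1427 ± 384 and 1498 ± 276 (-0.02 ± 0.20), and Adgrv1 at 1705 ± 247 and 1567 ± 237 (-0.20 ± 0.12). Their edgeR adjusted p lay between 0.134 and 0.973. Single embryos decided some of these values: without S2-2 the log2 fold change was 0.07 for Slc1a3 and 0.05 for Ednrb, and without E1-2 it was 0.21 for Hopx. Without both S2-1 and S2-2 it was 0.05 for Slc1a3, 0.04 for Ednrb, 0.32 for Hopx, -0.03 for Creb5, -0.14 for Nes, -0.11 for Ptprz1 and -0.18 for Adgrv1.

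**Figure D3:**
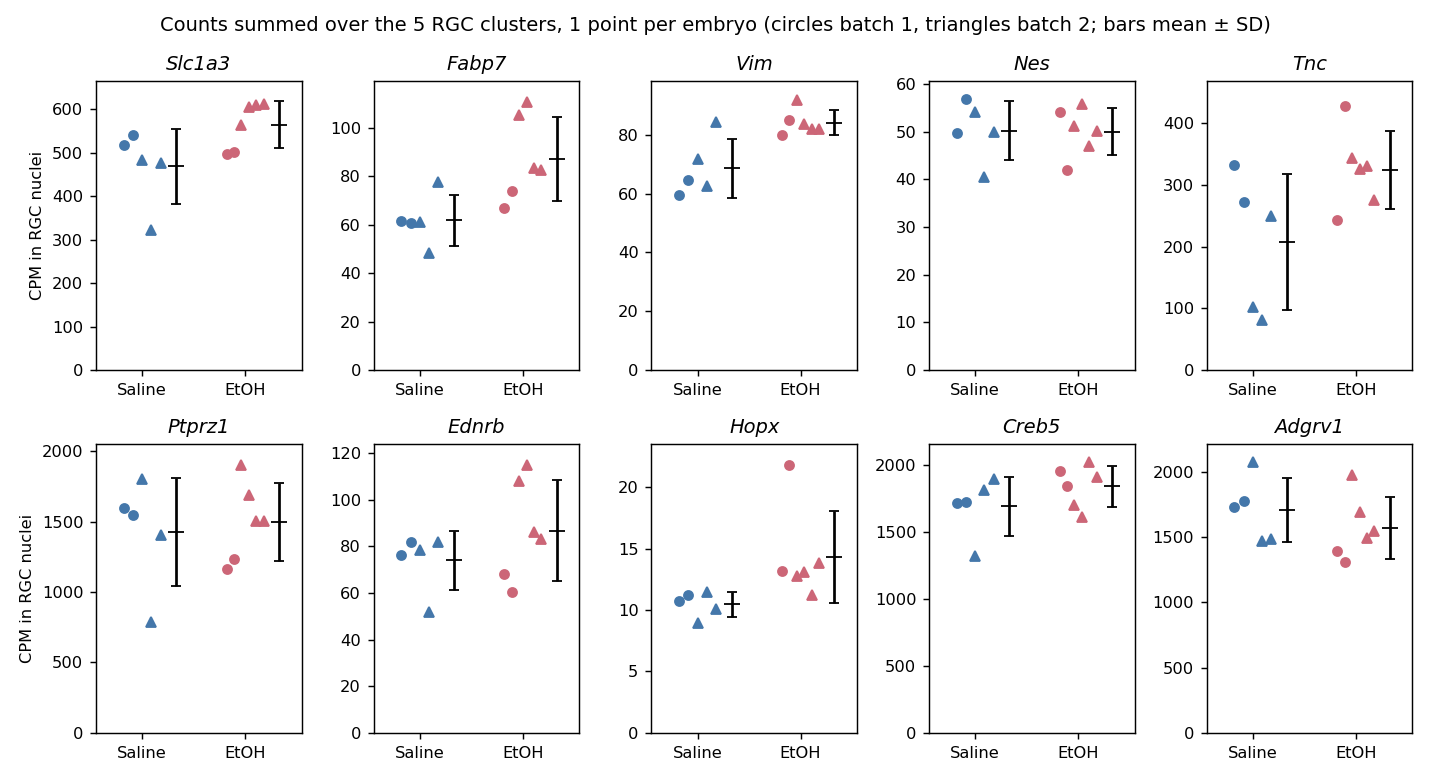
CPM of each of the 10 genes in RGC nuclei (y axes start at 0), with 1 point per embryo (saline blue, EtOH red, circles batch 1, triangles batch 2) and black bars for the mean ± SD. Fabp7, Vim and Hopx are the panels where only 1 saline embryo reaches the EtOH range, and the 2 low saline points of Tnc are S2-1 and S2-2.

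A difference of the treatment effect between the batches was tested with an interaction term. None of the 14282 genes passed adjustment in edgeR, and 7.24% had an unadjusted p under 0.05. Slc1a3 and Ednrb were among the latter, with log2 fold changes of -0.20 in batch 1 and 0.43 in batch 2 for Slc1a3, and -0.42 and 0.42 for Ednrb (adjusted p = 0.685 for both).

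The share of RGC nuclei with a UMI was compared after thinning all nuclei to the same depth. At 2000 UMIs per nucleus, Slc1a3 was seen in 48.5 ± 6.06% of saline and 54.2 ± 2.27% of EtOH RGC nuclei, and Fabp7 in 10.7 ± 1.36% and 14.2 ± 2.59%. Each difference had p = 0.0281 in a two-sided exact permutation test over embryos and an adjusted p of 0.190 by Benjamini-Hochberg over 11516 genes, of which 20.8% had an unadjusted p under 0.05 and none passed adjustment. The smallest p this design allows is 0.00216. The difference of 5.77 points for Slc1a3 was 3.31 without S2-2 and 1.86 without both S2-1 and S2-2 (exact permutation p = 0.238), and the 3.48 points of Fabp7 were 3.21 without both (exact permutation p = 0.119). The other 8 members had unadjusted p between 0.0563 and 0.870 in this exact permutation test. At 1000 UMIs per nucleus the exact permutation p was 0.0909 for Slc1a3, 0.0519 for Fabp7 and 0.0303 for Vim, and for RGC without Cluster 3 it was 0.0563, 0.0887 and 0.0238, with no gene passing adjustment in either setting. Without thinning, where 31.1% of 14511 genes passed adjustment, Nes was the 1 member that passed. It was seen in 30.1 ± 3.23% of saline and 24.1 ± 2.79% of EtOH RGC nuclei, where the saline nuclei were also the deeper ones (medians of 5837 to 8204 against 3520 to 5834 UMIs per RGC nucleus).

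Cluster by cluster, 174 pairs of member and cluster had enough counts for the fit, and 6 were called, which is to be read against the 0.792% called among all genes in the 25 clusters. Adgrv1 and Ptprz1 passed the filter in all 25 clusters, and Hopx in 4. One of the 6 was higher with EtOH and lay in an RGC cluster, and 5 were lower and lay in PN clusters. Overlap of the groups is described below for genes picked because they were called. How often the groups did not overlap among all genes is not given, so a gap adds no support.

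**Figure D4:**
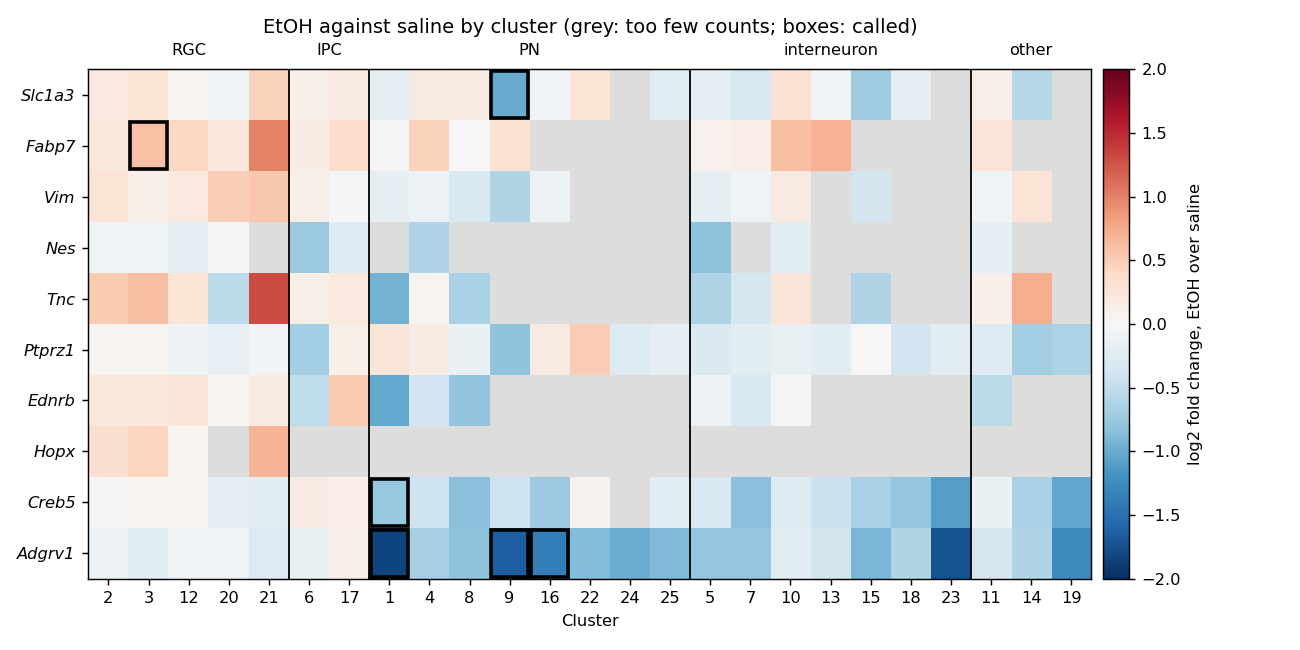
log2 fold change of EtOH over saline for the 10 genes (rows) in the 25 clusters (columns, grouped by class). Black boxes mark the 6 called pairs, grey marks pairs with too few counts, and the Adgrv1 row is below 0 in 24 of 25 clusters. The clusters share the same embryos, so the signs along a row are not independent repeats.

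In Cluster 3, where Fabp7 has its highest level, the gene rose with EtOH. The values were 86.5, 83.1, 78.4, 97.8 and 123 CPM in saline and 96.1, 139, 148, 170, 152 and 157 in EtOH embryos. The lowest EtOH embryo, E1-1, lay among the saline values, and the other 5 lay above all of them. The log2 fold change was 0.59 ± 0.12 (edgeR adjusted p = 0.0319, with 1.85% of genes called in this cluster), and it was 0.38 in batch 1 and 0.63 in batch 2. The call was lost when any of 8 of the 11 embryos was left out, without S2-1 and S2-2, and with counts summed per dam and batch in the model (adjusted p = 0.0513), while the log2 fold change lay between 0.53 and 0.69 in these fits. Across clusters, Fabp7 was above 0 in 15 of the 16 fitted, with a median log2 fold change of 0.28. The clusters come from the same 11 embryos, so these signs are not independent repeats.

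Adgrv1 fell in PN Clusters 1, 9 and 16. Cluster 1, callosal PN, held 58.1, 46.3, 84.5, 78.7 and 32.5 CPM in saline and 11.4, 25.6, 18.2, 12.9, 19.5 and 17.3 CPM in EtOH embryos. The groups did not overlap, and 20 to 44 UMIs of the gene stood behind each EtOH value. The log2 fold change was -1.84 ± 0.29 (edgeR adjusted p = 0.0205, 3.26% of genes called), with -1.63 in batch 1 and -1.96 in batch 2. The call was kept without S2-1 and S2-2 and lost without S1-1, E2-2 or E2-4, with an adjusted p of at most 0.0616.

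In Cluster 9, early PN, Adgrv1 was at 81.3, 76.4, 116, 94.4 and 42.7 CPM in saline and 30.0, 41.2, 32.0, 18.6, 20.5 and 22.02 CPM in EtOH embryos. These groups did not overlap either, although the lowest saline value and the highest EtOH value lay close together. EtOH against saline gave a log2 fold change of -1.65 ± 0.28 (edgeR adjusted p = 0.0250, 1.27% of genes called), with -1.21 and -1.83 in batches 1 and 2. Leaving out any of 8 embryos ended the call, with adjusted p up to 0.0645. Over all 11 such fits the log2 fold change lay between -1.84 and -1.52, and the call was kept without S2-1 and S2-2 together (-1.41, adjusted p = 0.0345).

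Cluster 16 held 58.0, 61.7, 86.1, 98.3 and 91.3 CPM of Adgrv1 in saline and 44.1, 40.3, 46.4, 16.1, 14.5 and 28.1 CPM in EtOH embryos, again without overlap. Here the log2 fold change was -1.39 ± 0.25 (edgeR adjusted p = 0.0394, 0.529% of genes called), with -0.56 in batch 1 and -1.92 in batch 2. This call was lost without any of 9 embryos, without S2-1 and S2-2, and with counts summed per dam and batch in the model (adjusted p = 0.225), while leaving out single embryos gave log2 fold changes between -1.54 and -1.21.

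The other 2 genes called lower were Creb5 and Slc1a3. Creb5 in Cluster 1 was at 97.1, 79.6, 69.5, 129 and 81.1 CPM in saline and 65.7, 68.1, 55.1, 56.1, 41.2 and 48.0 CPM in EtOH embryos, with no overlap. Its log2 fold change was -0.76 ± 0.16 (edgeR adjusted p = 0.0306), with -0.51 and -0.89 in batches 1 and 2. The call was lost without any of 6 embryos and kept without S2-1 and S2-2. With single embryos left out, the log2 fold change of Creb5 lay between -0.84 and -0.63. Slc1a3 in Cluster 9 was at 40.5, 31.7, 39.3, 48.9 and 26.1 CPM in saline and 30.0, 16.5, 9.30, 17.9, 23.6 and 20.2 CPM in EtOH embryos, where E1-1 overlapped the saline range. Its log2 fold change was -1.005 ± 0.220 (edgeR adjusted p = 0.0322). Leaving out 9 of 11 single embryos, or S2-1 and S2-2 together, removed the call, as did batch as a covariate (adjusted p = 0.0528). With single embryos left out, the log2 fold change of Slc1a3 lay between -1.13 and -0.86.

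**Figure D5:**
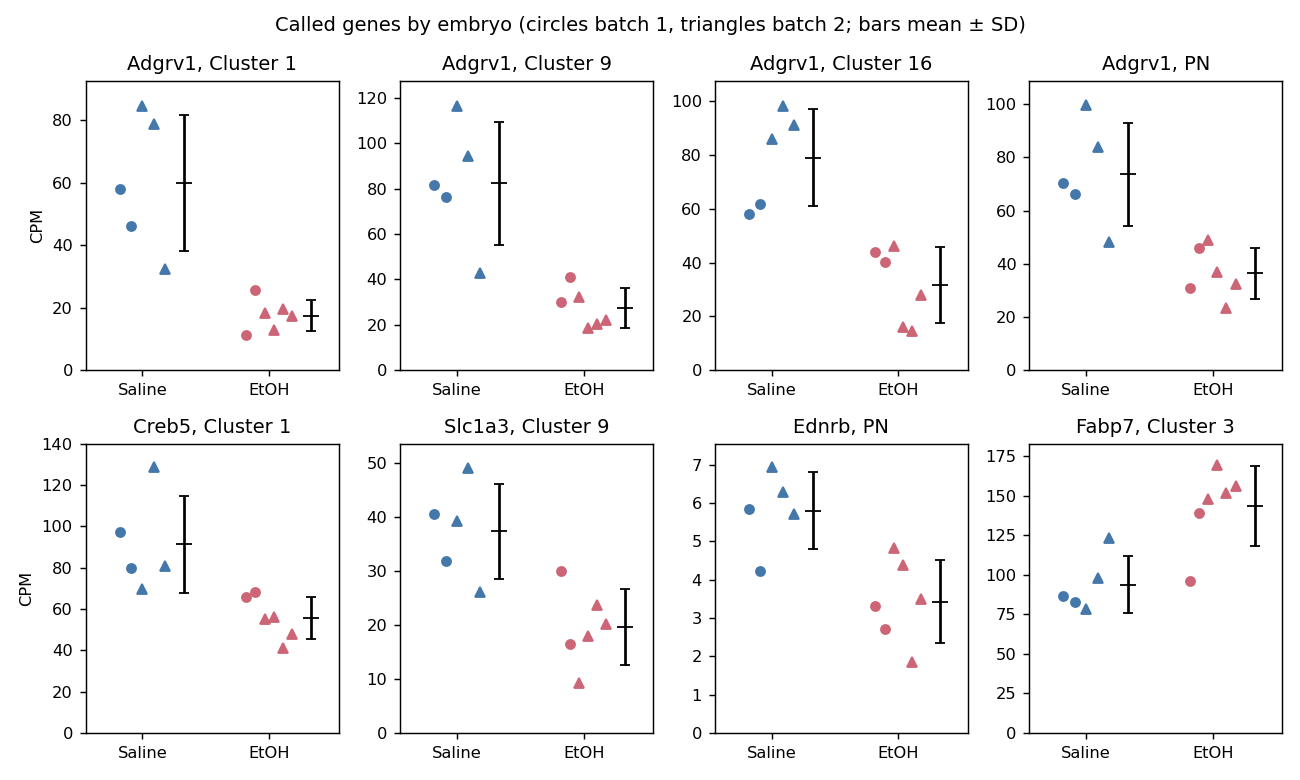
CPM per embryo (y axes start at 0) of 8 called combinations of gene and cluster or class, saline blue and EtOH red, circles batch 1 and triangles batch 2, bars mean ± SD. The groups do not overlap for Adgrv1 in Clusters 1, 9 and 16 and for Creb5 in Cluster 1, and they touch or overlap in the other 4 panels. The panels were chosen because they were called, and no share of all genes without overlap is given, so a gap is no further support.

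Summed over the 8 PN clusters, 2 of 9 members tested were called, both lower, against 6.53% of 14604 genes tested. The median of the 9 was -0.51, and that of all genes 0.01. Adgrv1 was at 70.5, 66.1, 99.7, 84.1 and 48.3 CPM in saline and at 30.8, 46.0, 48.9, 37.1, 23.2 and 32.3 CPM in EtOH PN nuclei. Only the lowest saline embryo, S2-4, and the highest EtOH embryo, E2-1, crossed. S2-4, whose depth lay within the EtOH range, was also the saline embryo nearest the EtOH values in several called pairs. These were Adgrv1 in Clusters 1 and 9, Slc1a3 in Cluster 9 and Fabp7 in Cluster 3. For Adgrv1 in Cluster 16 and Creb5 in Cluster 1 it was not the nearest. The part of depth in these calls was not tested. The log2 fold change was -1.05 ± 0.22 (edgeR adjusted p = 0.0297), with -0.93 in batch 1 and -1.12 in batch 2. Ednrb was at 5.80 ± 1.00 and 3.43 ± 1.09 CPM, a log2 fold change of -0.76 ± 0.20 (adjusted p = 0.0347), with -0.89 and -0.75 in the batches. Without S2-1 and S2-2 neither was called (adjusted p = 0.132 for Adgrv1), nor was any of the 14981 genes then tested. Ednrb was not called with counts per dam and batch in the model (adjusted p = 0.0975), and leaving out single embryos removed the call 7 times of 11 for Adgrv1 and 9 times for Ednrb. Over all 11 such fits the log2 fold change ran from -1.17 to -0.92 for Adgrv1 and from -0.90 to -0.65 for Ednrb. Creb5 (-0.61 ± 0.19, adjusted p = 0.0623) and Nes (-0.51 ± 0.24, adjusted p = 0.152) were lower without passing.

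Levels in neurons were also set against those in radial glia, without a test and without the same ratios for all genes. The ratios were not repeated without S2-1 and S2-2, whose low Tnc levels in RGC nuclei enter the saline ratios of Tnc. In PN nuclei Adgrv1 stood at 4.32 ± 0.974% of the level in RGC nuclei of the same embryo in saline and at 2.34 ± 0.647% in EtOH embryos. For Tnc the values were 4.75 ± 1.81% and 1.92 ± 0.528%, for Ednrb 8.15 ± 2.59% and 3.99 ± 0.973%, for Creb5 5.57 ± 1.22% and 3.47 ± 0.869%, for Slc1a3 13.8 ± 2.54% and 12.6 ± 2.21%, and for Ptprz1 45.4 ± 15.2% and 50.1 ± 13.5%. For Fabp7 they were 12.6 ± 4.58% and 9.31 ± 1.12%, for Vim 19.3 ± 8.61% and 12.6 ± 4.06%, for Nes 8.45 ± 4.32% and 5.85 ± 1.81%, and for Hopx 8.19 ± 3.33% and 4.20 ± 1.74%.

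Class markers, those of the PN class included, were also set side by side in the same nuclei, and some of the ranges overlapped. The summed CPM of the 3 interneuron markers Gad2, Gad1 and Dlx1 in PN nuclei was 46.8 to 119 in saline and 23.1 to 58.1 in EtOH embryos. The 3 IPC markers Eomes, Neurog2 and Btg2 summed to 33.5 to 48.4 and 23.5 to 31.2, the 3 RGC markers Hes1, Pax6 and Sox2 to 23.1 to 28.6 and 13.9 to 27.9, and the PN markers Neurod2, Neurod6 and Tbr1 to 376 to 469 and 338 to 377. In RGC nuclei the RGC markers summed to 327 to 409 CPM in saline and 357 to 489 in EtOH embryos. The interneuron markers summed to 108 to 241 and 103 to 147 there. The IPC markers summed to 95.2 to 122 and 94.8 to 118, and the PN markers to 42.2 to 65.6 and 37.6 to 72.5. The part of these marker sums, the depth per nucleus and the share of RGC nuclei in the levels of neurons and RGC nuclei was not tested. With nuclei thinned to 2000 UMIs, 99 pairs of member and cluster still had enough counts, among them the 6 called. The Adgrv1 calls in Cluster 1 and in PN remained. Those in Clusters 9 and 16 did not, at log2 fold changes of -1.46 and -1.58 (edgeR adjusted p = 0.181 and 0.113), nor did that of Slc1a3 in Cluster 9 (-1.45, adjusted p = 0.0522) and that of Ednrb in PN (-0.64, adjusted p = 0.174).

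In the other classes few members passed. None of 9 tested was called in IPC nuclei, where edgeR called 1.52% of genes, and none of 10 in interneurons, where it called 4.83%. The numbers with an unadjusted p under 0.05 were 1 and 3, against 23.7% and 28.3% of all genes, and DESeq2 called 0 and 2, against 5.72% and 8.85%. Closest were Ptprz1 (-0.24 ± 0.07, adjusted p = 0.0563), Adgrv1 (-0.57 ± 0.17, adjusted p = 0.0626) and Nes (-0.65 ± 0.21, adjusted p = 0.0644) in interneurons. In the remaining clusters 11, 14 and 19, Adgrv1 was called, at 127 ± 12.1 CPM in saline and 92.1 ± 17.4 in EtOH nuclei (log2 fold change -0.53 ± 0.11, edgeR adjusted p = 0.0456, with 1.253% of genes called). The log2 fold change was -0.37 in batch 1 and -0.60 in batch 2, and between -0.60 and -0.46 with single embryos left out. The call was lost without any of 10 embryos and without S2-1 and S2-2. It was also lost with batch as a covariate (edgeR adjusted p = 0.0569) and with counts per dam together with that covariate (0.0558).

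Over all nuclei, 2 of the 10 genes were called, both lower, against 12.1% of 18138 genes. Adgrv1 was at 430, 477, 669, 539 and 416 CPM in saline and 380, 312, 363, 384, 345 and 384 CPM in EtOH embryos, with no overlap, a log2 fold change of -0.56 ± 0.11 (edgeR adjusted p = 0.0149) and similar values in batch 1 (-0.55) and batch 2 (-0.58). It was called whichever embryo was left out and not without both S2-1 and S2-2 (adjusted p = 0.0856). Nes was at 16.7 ± 2.25 and 12.9 ± 2.31 CPM (-0.44 ± 0.11, adjusted p = 0.0216) and lost its call without S1-2 or S2-1, and after thinning. In such sums, fewer nuclei of a type and less RNA per nucleus cannot be told apart, and RGC nuclei were a larger share of the saline embryos.

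Further lists were made of other radial glia genes and of partners of the 10, which were chosen with earlier results of these data known. Of 35 further radial glia genes, 33 were tested in RGC nuclei, 21 had a log2 fold change above 0, none was called by edgeR, and the median was 0.10. Those with the smallest p were Ttyh1 (0.25 ± 0.07, adjusted p = 0.0505), Hes1, a target of Notch signalling (0.51 ± 0.15, adjusted p = 0.0610), and Phgdh, an enzyme of serine synthesis (0.38 ± 0.12, adjusted p = 0.0685). In PN nuclei 30 were tested and 23 lay below 0, with a median of -0.24. The 3 called, against the 6.53% of all genes in PN nuclei, were all lower: Gli3, a transcription factor of Hedgehog signalling (-0.99 ± 0.18, edgeR adjusted p = 0.0245), Palld, an actin-binding protein (-0.68 ± 0.16, adjusted p = 0.0344), and Emx2, a cortical homeodomain factor (-0.66 ± 0.17, adjusted p = 0.0360). Of 21 ligands, receptors and binding partners of the members, 18 were tested in RGC nuclei, and Cntn1, a contactin that binds Ptprz1 and tenascins, was the 1 called, lower (-0.83 ± 0.21, edgeR adjusted p = 0.0477), against 3.79% of all genes. In PN nuclei 18 were also tested, and Itgb8, an integrin subunit, was the 1 called, lower (-0.53 ± 0.16, edgeR adjusted p = 0.0499). None of these 5 calls was kept without S2-1 and S2-2 (edgeR adjusted p of 0.122 to 0.184).

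Among markers of cells that the dissection could carry along, the sum of 4 microglia markers in RGC nuclei was 14.3 to 39.6 CPM in saline and 37.1 to 47.4 in EtOH embryos, with none of the 4 at 0. That of 3 choroid plexus markers was 24.97 to 171 and 3.82 to 95.2 CPM, and that of 3 astrocyte markers stayed between 0.717 and 2.42 CPM in both groups. That of 4 pericyte markers was 16.4 to 28.5 CPM in saline and 22.7 to 35.8 in EtOH embryos, and that of 5 meningeal fibroblast markers 6.71 to 30.0 and 6.07 to 12.2. The sum of 3 blood markers was 5.39 to 73.1 CPM in saline and 12.4 to 40.4 in EtOH embryos. In PN nuclei, where most calls lay, the microglia markers summed to 8.32 to 20.5 CPM in saline and 17.8 to 26.6 in EtOH embryos, the blood markers to 4.40 to 76.6 and 13.9 to 33.4, and the choroid plexus markers to 4.14 to 34.7 and 1.28 to 16.6. The medians of the microglia and blood sums were higher, and those of the choroid plexus and meningeal sums lower, with EtOH in all 5 classes. The part of these in any of the results was not tested.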

How the data were processed

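Nuclei of embryonic mouse cortices were sequenced with the 10x 3′ version 3.1 chemistry, and the tables of 11 cortices were used. Another saline cortex, which the study removed after clustering, was not analysed here. The authors used Cell Ranger with mm10 and default parameters (version and use of intronic or antisense reads not given in the sources used here), filtered nuclei by genes, mitochondrial and hemoglobin transcripts, integrated and clustered them in Seurat with Harmony, and removed thalamic, low-transcript and non-neuronal clusters. The methods name no doublet step, and none was added. The deposited values were raw UMI counts per gene and nucleus, with 1 table per embryo and cluster; class and cluster names are those of the study. Of 50226 different barcode sequences, 314 occurred in more than 1 embryo, at most 18 in any pair of embryos.

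Here counts were summed per embryo and cluster or class (at least 10 nuclei) and divided by the sum to give CPM. Embryo and cluster sums under 10 nuclei, 9 in all, were left out. EtOH was compared with saline by the quasi-likelihood test of edgeR 4.0.16 (TMM, filterByExpr, robust, R 4.3.3) with Benjamini-Hochberg adjustment over all genes tested, in fits with at least 2 embryos per group and no covariate. Shares of nuclei were tested by exact permutation over embryos after thinning to 2000 UMIs, for genes with a UMI in at least 100 nuclei. Embryos were the replicates. Littermates share a dam, so p-values measure the spread between embryos of 2 dams per group. Depth was 14078316 to 83061737 UMIs per embryo.

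The members and lists were chosen with earlier results of these data known. Named were all 10 members, every called pair, list genes called in the RGC or PN fits or else the 3 with the smallest p in RGC, and the genes most like each member by Pearson r of mean log2(CPM + 1) over clusters (pseudocount 1, mean of at least 10 CPM). Alternatives were size factors by RLE, DESeq2 1.42.0, no filter, batch as a covariate, voom of limma 3.58.1 treating dams as a random effect, counts summed per dam with batch as a covariate, thinning and each embryo left out. Leaving out S2-1 and S2-2 together was added after the data were seen. Gene positions came from GENCODE M21 and promoters from RefSeq.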

Additional observations from a re-analysis of the deposited data

Results flagged for a closer look

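In each group of 4 to 10 embryos, the embryo farthest from the rest was compared with the range of its group. Of 46 groups of values, 3 held such a far embryo, where chance gives about 1 in 20. Ednrb in RGC nuclei was at 52.0 CPM in saline embryo S2-2, below the other 4 saline embryos. Hopx in RGC nuclei was at 21.8 CPM in EtOH embryo E1-2, above the other 5 EtOH embryos. Adgrv1 in the remaining nuclei of Clusters 11, 14 and 19 was at 148 CPM in saline embryo S2-1, above the other 4 saline embryos.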

How the results depend on the processing

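Called pairs of member and cluster numbered 6 of 174 tested. They numbered 20 of 211 with counts summed per dam (a fit that also holds batch as a term), 11 with DESeq2, 16 of 250 with no filter on low counts, 3 without S2-1 and S2-2, and 0 to 15 with each embryo left out, and of the original 6 these fits kept 4, 6, 6, 3 and 0 to 6. Of all genes and clusters, the same fits called 1.995%, 2.60%, 2.07%, 0.0317% and 0.0408 to 8.78%, against 0.792% in the fit reported. Calls in general thus moved too. The cause was not tested. After thinning 5 of 99 were called, 3 of them among the 6. The share of all genes called after thinning is not given here, so this count is not read against genes in general. Members called in RGC nuclei numbered 1 with DESeq2 and 1 with limma voom, and 0 to 1 with each embryo left out. In PN nuclei they numbered 1 with counts per dam and batch (0.608% of all genes), 0 without S2-1 and S2-2 (no gene called), and 0 to 3 with each embryo left out. In interneurons they numbered 2 with DESeq2 (8.85%), 1 with no filter (2.81%), 1 with thinning (2.33%), 2 with limma voom (11.01%), and 0 to 1 with each embryo left out. In the remaining clusters they numbered 0 with batch as a covariate (0.00809%), 0 with counts per dam and batch (1.30%), 2 with DESeq2 (4.21%), 0 without S2-1 and S2-2 (no gene called), and 0 to 1 with each embryo left out. Over all nuclei they numbered 1 with thinning (6.20%), 0 without S2-1 and S2-2 (0.0167%), and 1 to 2 with each embryo left out. In IPC nuclei the count stayed at 0 in every alternative run. For the classes, the shares of all genes called with each embryo left out are not given here. Those counts are therefore not read as results about the members.

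Log2 fold changes near 0 in RGC nuclei changed sign: Nes to 0.11 with thinning, Ptprz1 to 0.026 with limma voom and between -0.18 and 0.083 with each embryo left out, and Creb5 to -0.035 without S2-1 and S2-2 and between -0.028 and 0.080 with each embryo left out. For the share of RGC nuclei with a UMI, 1 member (Nes) was called without thinning, as were 31.1% of all genes, when EtOH minus saline was -2.54 points for Vim, -5.96 for Nes, -2.92 for Ptprz1, -2.03 for Ednrb, -0.0019 for Hopx, -2.24 for Creb5 and -2.66 for Adgrv1, each of which was above 0 at 2000 UMIs. Without S2-1 and S2-2 it was -2.99 for Ptprz1. With each embryo left out the difference ran from -3.57 to 2.65 for Ptprz1 and from -0.061 to 1.57 for Adgrv1.

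With thinning, the RGC part of a member's UMIs moved by at least its SD between embryos for some genes. It went to 75.0% for Slc1a3, 77.9% for Nes, 89.1% for Tnc, 80.1% for Ednrb, 79.5% for Creb5 and 83.1% for Adgrv1. The others moved by less than their SD, among them Ptprz1 from 44.3 to 50.3%. Without Cluster 3, which then counts outside the RGC, it was 40.5% for Slc1a3, 35.3% for Fabp7, 40.5% for Vim, 44.0% for Nes, 43.9% for Tnc, 18.5% for Ptprz1, 38.3% for Ednrb, 64.8% for Hopx, 62.3% for Creb5 and 48.0% for Adgrv1. No paired analysis was possible because the embryo numbers name littermates within a dam and tie no saline embryo to an EtOH embryo. Batch, with a saline and an EtOH dam each, was fitted as a covariate, with the calls it ended given beside them, and no member was called for its share when labels were exchanged within batches. Depth limits Hopx, fitted in 4 of 25 clusters, and the low counts of most members in neurons.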

Other observations

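The number of members with a UMI per nucleus, at 2000 UMIs, was also set side by side for the groups without a test. In interneurons the 5 saline embryos averaged 0.908 ± 0.0765 (SD) and the 6 EtOH embryos 0.638 ± 0.0430, and in the remaining clusters 0.739 ± 0.0665 and 0.514 ± 0.0438, with no overlap between the groups in either class. Other genes were not compared in this way, so these gaps are not read as results about the members. PN nuclei held 0.926 ± 0.0688 in the saline and 0.793 ± 0.0571 in the EtOH group, where the ranges of 0.820 to 0.991 and 0.728 to 0.890 overlapped. In RGC nuclei the number was 3.48 ± 0.279 in saline and 3.77 ± 0.139 in EtOH embryos, where the groups overlapped. In IPC nuclei it was 1.39 ± 0.0848 and 1.31 ± 0.125.

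Among neurons, Ptprz1 differed widely between clusters. The subcortical PN Clusters 16 and 4 held it at 1237 and 1034 CPM, callosal PN Cluster 1 at 710 ± 130 CPM and early PN Cluster 9 at 120 CPM. Summed over PN nuclei it was at 606 ± 143 CPM in saline and 723 ± 79.3 CPM in EtOH embryos (log2 fold change 0.20 ± 0.16, edgeR adjusted p = 0.410).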
